A study of Mus musculus with 24 samples.

Results

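The genes described here are 5 protein-coding mouse genes, Macf1, Diaph2, Tmem72, Arsb and Gpr151, out of 29759 genes measured. They were chosen by their measured values, for a high level in chromatin RNA over nucleoplasm or cytoplasm RNA, so those differences are a description of the choice and carry no test. The RNA came from E14 mouse embryonic stem cells, an established line, in 2 states. Naive cells (nESC) grew in serum-free N2B27 medium with LIF and the inhibitors PD0325901 (MEK) and CHIR99021 (GSK3). Epiblast-like cells (EpiLC) were derived from them in N2B27 with 20 ng/ml of activin A plus 12 ng/ml of bFGF and collected on day 3. Each state gave 4 kinds of RNA, from chromatin, from nucleoplasm, from cytoplasm and from whole cells (total), with 3 libraries each, so there are 8 groups and 24 libraries. The labels do not say that replicates came from separate cultures, so p-values measure the spread between these libraries, which may be technical.

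The chromatin fraction of a fractionated nucleus holds nascent RNA still attached to its template and finished RNA that stays bound there. The nucleoplasm holds RNA released from chromatin, and the cytoplasm holds exported RNA, mostly mature messenger RNA. Most coding genes are therefore known for a large cytoplasmic pool, while nuclear noncoding RNAs such as Malat1 are known for a nuclear one. Macf1 encodes a spectraplakin that links actin filaments to microtubules, and Diaph2 a formin that nucleates and elongates actin filaments. Tmem72 encodes a transmembrane protein, Arsb the lysosomal enzyme arylsulfatase B, which removes sulfate from dermatan and chondroitin sulfate, and Gpr151 an orphan G protein-coupled receptor known from the habenula.

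Levels are given in FPKM, mapped fragments scaled to transcript length and library size, so that levels of different genes can be set side by side. FPKM is a relative measure within a library and does not show an amount per cell. The sums of FPKM differed between libraries, from 432706 in EpiLC chromatin replicate 2 to 1980223 in nESC cytoplasm replicate 1. A level is therefore not a plain share of its library, and differences between fractions depend on the scaling. In such bulk RNA, fewer cells of a type and less RNA per cell cannot be told apart. The fractions bore their known marks. Malat1 averaged 4864 FPKM in nESC chromatin and 173 in nESC cytoplasm, while the ribosomal protein gene Rplp1 averaged 769 and 26554; 1 nESC nucleoplasm library listed Malat1 at 0. The 6 naive markers summed to 932 to 966 FPKM in nESC total RNA and 33.6 to 36.3 in EpiLC total RNA, and the 5 EpiLC markers to 30.7 to 32.1 and 1089 to 1124. Of 5 kidney and 5 habenula markers, listed because Tmem72 and Gpr151 are known from those tissues, the nESC chromatin sums were 0.0398 to 0.537 and 3.94 to 5.43 FPKM. In EpiLC total RNA they were 1.03 to 2.3 and 1.23 to 1.35. The kidney marker Umod was listed at 0 in every group, while Pax8 averaged 1.82 FPKM in EpiLC cytoplasm. The habenula marker Pou4f1 averaged 4.16 FPKM in nESC chromatin. The chromatin libraries varied most: across genes, each correlated with the mean of the other 2 of its group at 0.975 to 0.987 in nESC and 0.967 to 0.986 in EpiLC, against 0.989 or more elsewhere. EpiLC chromatin replicate 3 had the lowest value (0.967), and EpiLC cytoplasm replicate 3 the lowest outside chromatin (0.989), so the chromatin differences of the genes in EpiLC are also given without both.

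The 5 genes differ in almost every feature of their structure (GENCODE M21, GRCm38). Macf1 lies at chr4:123349633-123684360 on the minus strand, spans 335 kb and has 98 exons in its longest coding transcript of 23495 bases. Diaph2 lies at chrX:129749742-130465834 on the plus strand and spans 716 kb with 27 exons, longer than 99.8% of tested genes. Arsb lies at chr13:93771630-93943016 on the plus strand and spans 171 kb with 8 exons. These 3 spans exceed the median tested gene, at 20.9 kb, many times over. Tmem72 lies at chr6:116679063-116716913 on the minus strand and spans 37.9 kb, but its last exon of 16467 bases makes up 96% of its transcript of 17152 bases. Gpr151 is a single exon of 1772 bases with no intron. A gene-level value does not show whether the reads of a gene lie in spliced or unspliced RNA.

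Since messenger RNA leaves chromatin after cleavage at its 3′ end, the last 30 bases of the longest coding transcript are shown for 4 of the genes, 5′ to 3′ on the transcript strand, from the GENCODE M21 transcripts (GRCm38). They are chr4:123349633-123349662 (minus), chrX:130465802-130465831 (plus), chr6:116679063-116679092 (minus) and chr13:93942987-93943016 (plus) in the order printed. Capitals mark the cleavage signal AATAAA, of which Arsb holds 2 overlapping matches.
Macf1: ccgctaaggtataaaaatgttgtagtactt
Diaph2: tattaattcAATAAAgcttagatctgcatt
Tmem72: tataAATAAAgttttattgtcaaacagcga
Arsb: acaaAATAAAATAAAatctttctaaaacta
The signal AATAAA and its common variant ATTAAA were searched in the last 40 bases on the transcript strand only. Diaph2, Tmem72 and Arsb hold AATAAA, as do 57.7% of 21573 coding genes. Macf1 holds neither in this window, as do 29.6%, and 12.8% hold ATTAAA only. These matches describe the annotated ends and say nothing of which ends the cells used.

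In nESC chromatin, Macf1 was the most abundant of the 5 genes and Gpr151 the least. The means were 570 FPKM for Macf1, 187 for Tmem72, 37.3 for Diaph2, 23.5 for Arsb and 16.4 for Gpr151. The Arsb libraries (16 to 38.1 FPKM) overlapped those of both Diaph2 (34.3 to 39.4) and Gpr151 (14.6 to 20.1), so this end of the order is not resolved. In EpiLC chromatin the order was Macf1 at 245 FPKM, Tmem72 at 93.8, Diaph2 at 23.9, Gpr151 at 12 and Arsb at 1.26, with an overlap of Diaph2 (15.9 to 35.4) and Gpr151 (8.06 to 16.3). In nESC total RNA, Macf1 led at 66.4 FPKM and Arsb (1.15 to 1.31) and Gpr151 (0.734 to 1.2) overlapped.

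**Figure D1:**
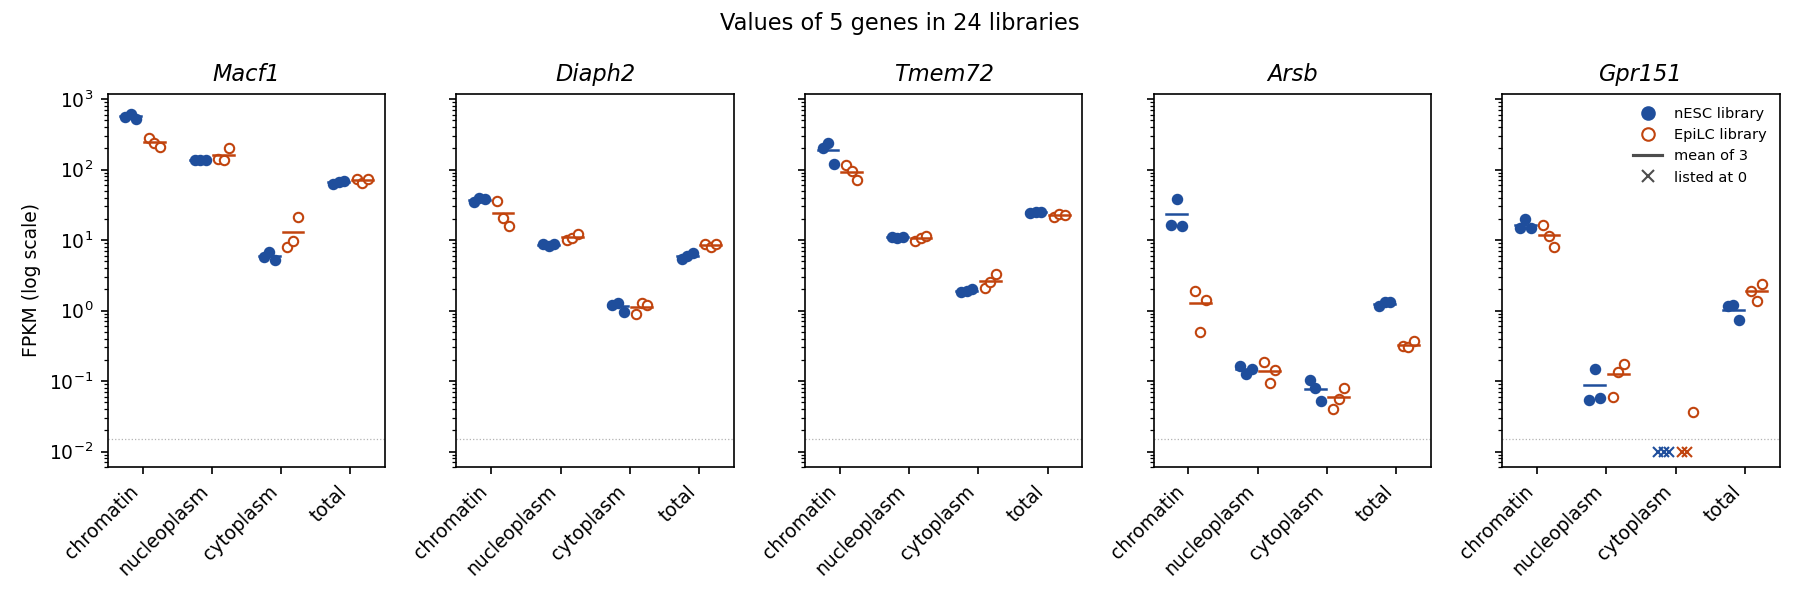
FPKM (log scale) of each gene in all 24 libraries, by fraction, with nESC as filled and EpiLC as open circles, a line at the mean of 3 libraries where none is 0, and crosses for libraries listed at 0. Every gene is highest in chromatin in both states, from 570 FPKM for Macf1 in nESC to 1.26 for Arsb in EpiLC.

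Macf1 was high in chromatin and low in cytoplasm in nESC. Its nESC chromatin libraries held 563, 621 and 527 FPKM, its nucleoplasm libraries 138, 138 and 135, its cytoplasm libraries 5.7, 6.71 and 5.14, and its total RNA libraries 62.9, 67 and 69.2. None of these groups overlapped, and the nucleoplasm stood above total RNA. The mean in chromatin was 97.5 times that in cytoplasm and 4.17 times that in nucleoplasm. On the log2(FPKM + 0.5) scale used for all fits, which understates changes of low values, the chromatin difference was 6.50 (SE 0.09) over cytoplasm and 2.05 (SE 0.09) over nucleoplasm.

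In EpiLC the levels of Macf1 in chromatin RNA and nucleoplasm RNA lay closer together. Its libraries held 285, 238 and 212 FPKM in chromatin, 142, 138 and 202 in nucleoplasm, 8, 9.74 and 21.1 in cytoplasm and 74.6, 65.4 and 74.5 in total RNA. The chromatin libraries were still above the nucleoplasm libraries, but only by 1.05 times at the closest pair. The chromatin difference was 4.30 (SE 0.28) over cytoplasm and 0.62 (SE 0.28) over nucleoplasm. Without EpiLC chromatin and cytoplasm replicate 3, of which the latter held the highest Macf1 value in cytoplasm, these were 4.80 (SE 0.17) and 0.72 (SE 0.16). The total RNA level overlapped between the states, at 66.4 ± 3.19 (SD, n = 3) in nESC and 71.5 ± 5.28 in EpiLC, while the chromatin level was 2.33 times higher in nESC. The 2 states come from separately normalized tables, so this difference was not tested.

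Diaph2, the other cytoskeletal gene, followed Macf1 at a lower level. Its nESC libraries held 34.3, 39.4 and 38.2 FPKM in chromatin, 8.75, 8.23 and 8.69 in nucleoplasm, 1.2, 1.29 and 0.957 in cytoplasm and 5.46, 5.9 and 6.45 in total RNA. As for Macf1, no groups overlapped and nucleoplasm stood above total RNA. The chromatin difference was 4.52 (SE 0.10) over cytoplasm and 2.06 (SE 0.10) over nucleoplasm. In EpiLC the libraries held 35.4, 20.5 and 15.9 FPKM in chromatin, 10, 10.6 and 12.3 in nucleoplasm, 0.883, 1.26 and 1.18 in cytoplasm and 8.76, 8.03 and 8.71 in total RNA. The EpiLC chromatin libraries spread over a wide range, with replicate 1 highest and replicate 3 lowest, and reached down to 1.29 times the highest nucleoplasm library. The EpiLC differences were 3.85 (SE 0.22) over cytoplasm and 1.02 (SE 0.22) over nucleoplasm, and 4.14 (SE 0.22) and 1.26 (SE 0.20) without both libraries numbered 3.

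Tmem72 was abundant on chromatin and scarce in nucleoplasm. Its nESC libraries held 201, 239 and 121 FPKM in chromatin, 11, 10.6 and 11.2 in nucleoplasm, 1.84, 1.88 and 1.99 in cytoplasm and 24.4, 24.8 and 24.7 in total RNA. The chromatin libraries varied almost 2-fold, the other groups hardly at all, and nucleoplasm stood below total RNA. The chromatin difference was 6.23 (SE 0.18) over cytoplasm and 3.98 (SE 0.18) over nucleoplasm. In EpiLC the libraries held 116, 94.7 and 70.9 FPKM in chromatin, 9.72, 10.8 and 11.4 in nucleoplasm, 2.11, 2.52 and 3.32 in cytoplasm and 21.3, 23.6 and 22.7 in total RNA. The nucleoplasm level overlapped that of nESC, while chromatin was lower than in every nESC library. The EpiLC differences were 4.89 (SE 0.17) over cytoplasm and 3.06 (SE 0.17) over nucleoplasm, and 5.23 (SE 0.12) and 3.24 (SE 0.11) without both libraries numbered 3.

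Arsb was far higher in chromatin RNA than elsewhere in nESC, with traces in nucleoplasm and cytoplasm. Its nESC libraries held 16.4, 38.1 and 16 FPKM in chromatin, 0.165, 0.126 and 0.15 in nucleoplasm, 0.103, 0.0807 and 0.0515 in cytoplasm and 1.15, 1.31 and 1.31 in total RNA. Chromatin replicate 2 held more than 2 times the level of the other two. The steps between low FPKM values put an estimated 23 to 28 fragments behind the nucleoplasm values and 3 to 5 behind the cytoplasm values, so the low levels rest on few fragments. The chromatin mean was 160 times the nucleoplasm mean, 96.9 times at the closest pair of libraries. The chromatin difference on the log2 scale was 5.26 (SE 0.25) over cytoplasm and 5.09 (SE 0.25) over nucleoplasm.

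In EpiLC, Arsb held 1.9, 0.498 and 1.39 FPKM in chromatin, 0.184, 0.0927 and 0.143 in nucleoplasm, 0.0402, 0.0563 and 0.0807 in cytoplasm and 0.311, 0.306 and 0.368 in total RNA. Its mean over the 12 libraries, 0.447 FPKM, was below the minimum of 1 for testing, so it was not fitted there. The nESC chromatin mean was 18.6 times the EpiLC one, while nucleoplasm (0.147 ± 0.0198 and 0.14 ± 0.0457, SD, n = 3) and cytoplasm overlapped between the states. In chromatin and total RNA, all nESC libraries of Arsb lay above those of EpiLC. The EpiLC values rest on an estimated 13 to 25 fragments in nucleoplasm and 3 to 6 in cytoplasm. Overlap at so few fragments does not show equal levels in those fractions. The state difference was not tested, and the states come from separately normalized tables.

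Gpr151, at chr18:42577881-42579652 on the minus strand (GRCm38), was far higher in chromatin RNA than elsewhere in both states. Its nESC libraries held 14.6, 20.1 and 14.6 FPKM in chromatin, 0.0537, 0.148 and 0.0578 in nucleoplasm and 1.16, 1.2 and 0.734 in total RNA. It was listed at 0 in all 3 nESC cytoplasm libraries, so no fold over cytoplasm is given. The estimated fragments were 369 to 531 per library in chromatin and 3.3 to 11 in nucleoplasm. In EpiLC it held 16.3, 11.5 and 8.06 FPKM in chromatin, 0.0602, 0.136 and 0.177 in nucleoplasm, 0, 0 and 0.0362 in cytoplasm and 1.9, 1.38 and 2.38 in total RNA. The EpiLC chromatin values overlapped the nESC ones. The chromatin difference over nucleoplasm was 4.84 (SE 0.16) in nESC and 4.27 (SE 0.22) in EpiLC, and 4.51 (SE 0.20) in EpiLC without both libraries numbered 3.

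The 5 genes are therefore not all at the top of the same list. Of 12592 genes tested in nESC, Macf1 ranked 13 and Tmem72 18 in the difference of chromatin over cytoplasm, with Arsb at 64 and Diaph2 at 168. This order depends on the pseudocount: with 0.1 in place of 0.5, Arsb stood at 6.93, Macf1 at 6.59 and Tmem72 at 6.49, and the plain ratios of means were 299, 97.5 and 98.1. In the difference over nucleoplasm, Arsb ranked 6, Gpr151 8 and Tmem72 35, but Diaph2 601 and Macf1 609. The order of Arsb and Gpr151 is not resolved: they stood at 6.46 and 6.49 with a pseudocount of 0.1, and at 4.30 and 3.99 with 1. Of 12834 genes tested in EpiLC, Gpr151 ranked 4 and Tmem72 129 over nucleoplasm, and Macf1 3181. The lowest of the 5 in nESC over cytoplasm, Diaph2 at 4.52, stood just above Atr at 4.51, and 163 genes outside the 5 lay above it. Both comparisons use the same chromatin libraries, so they are not independent.

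All chromatin libraries lay above all cytoplasm and all nucleoplasm libraries for the 5 genes that passed the filter on low values in nESC and the 4 that passed in EpiLC. Among all genes tested that held over cytoplasm for 43.4% in nESC and 41.1% in EpiLC, and over nucleoplasm for 39.2% and 33.7%. Since these contrasts chose the genes, nothing is read from the counts, and Arsb in nESC and Gpr151 in both states passed the filter only through chromatin. The median difference over cytoplasm was 5.74 in nESC for the 4 genes other than Gpr151 and 4.30 in EpiLC for the 3, against 0.04 and 0.00 for all genes tested. Over nucleoplasm it was 3.98 for 5 genes in nESC and 2.04 for 4 in EpiLC, against 0.02 and -0.07.

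**Figure D2:**
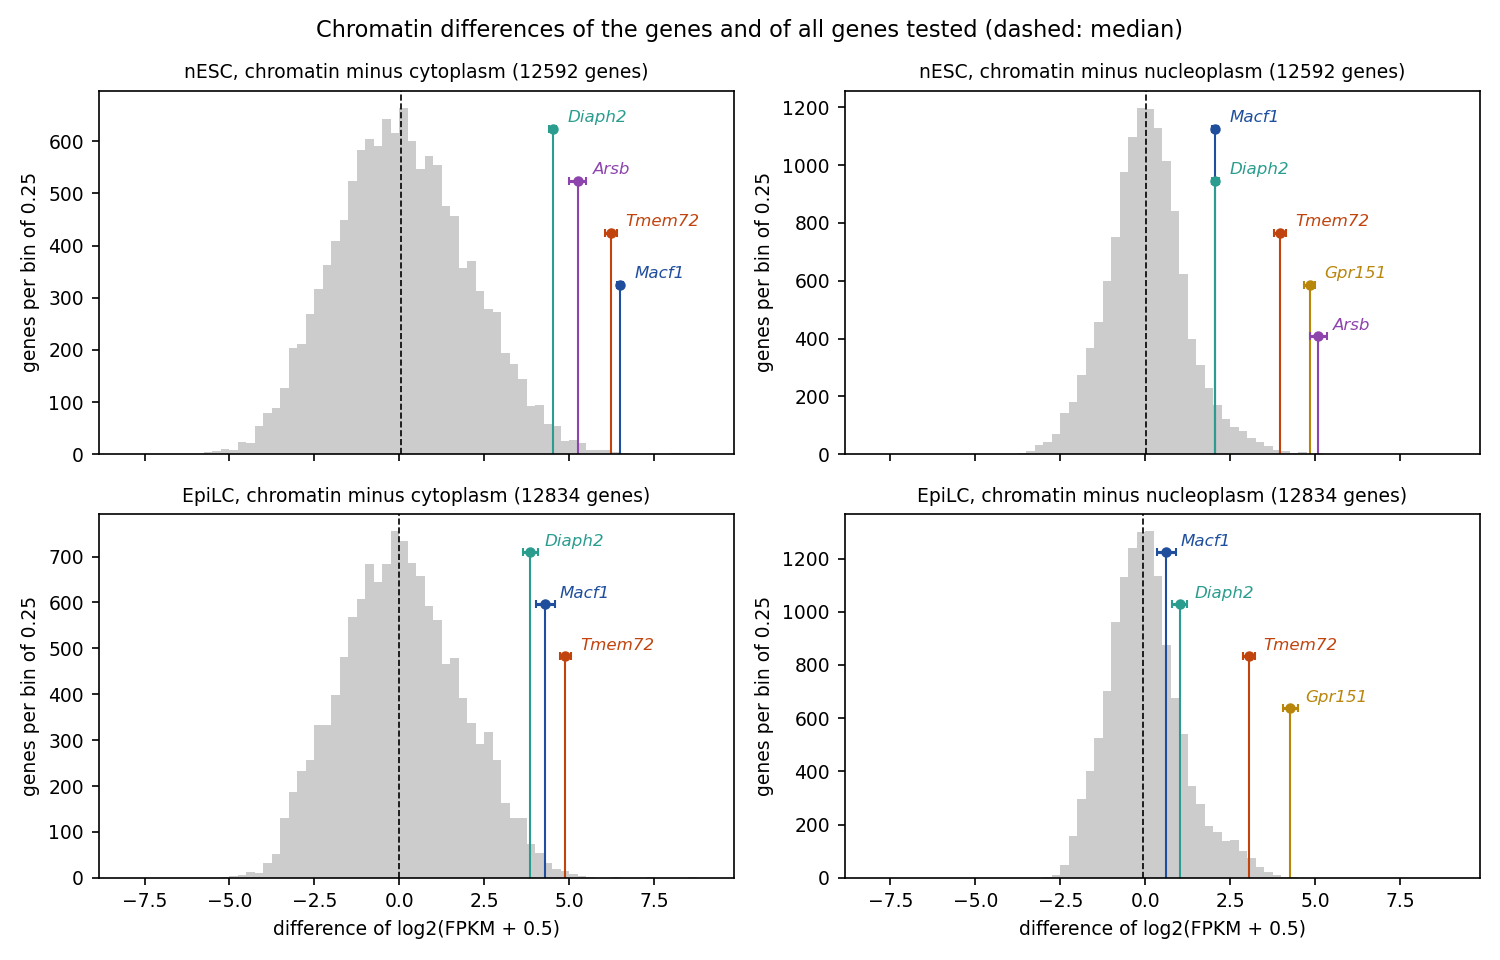
Histograms of the chromatin difference of all genes tested (x axis, difference of log2(FPKM + 0.5); y axis, genes per bin), with the named genes at their values, SE as error bars and the median of all genes dashed. Gpr151 is left out over cytoplasm, where it is listed at 0. Macf1 and Diaph2 sit inside the body of genes over nucleoplasm in EpiLC, at 0.62 and 1.02, while Tmem72 and Gpr151 sit at 3.06 and 4.27.

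The place of the nucleoplasm relative to total RNA differed between the genes. This contrast shares the nucleoplasm libraries by which genes were chosen, so its values are a description too. Macf1 and Diaph2 were higher in nucleoplasm than in total RNA, by 1.04 (SE 0.09) and 0.50 (SE 0.10) in nESC and by 1.14 (SE 0.28) and 0.34 (SE 0.22) in EpiLC. All 3 nucleoplasm libraries lay above all 3 total RNA libraries for both genes in both states, as for 36.6% of all genes tested in nESC and 36.0% in EpiLC. Tmem72, Arsb and Gpr151 were lower in nucleoplasm than in total RNA in nESC, with differences of -1.14 (SE 0.18), -1.44 (SE 0.25) and -1.37 (SE 0.16). In EpiLC these were -1.05 (SE 0.17) for Tmem72 and -1.92 (SE 0.22) for Gpr151, again without overlap, as for 42.7% and 35.6% of all genes tested in nESC and EpiLC. Each direction was the same with libraries centred on their median or scaled to one sum of FPKM.

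**Figure D3:**
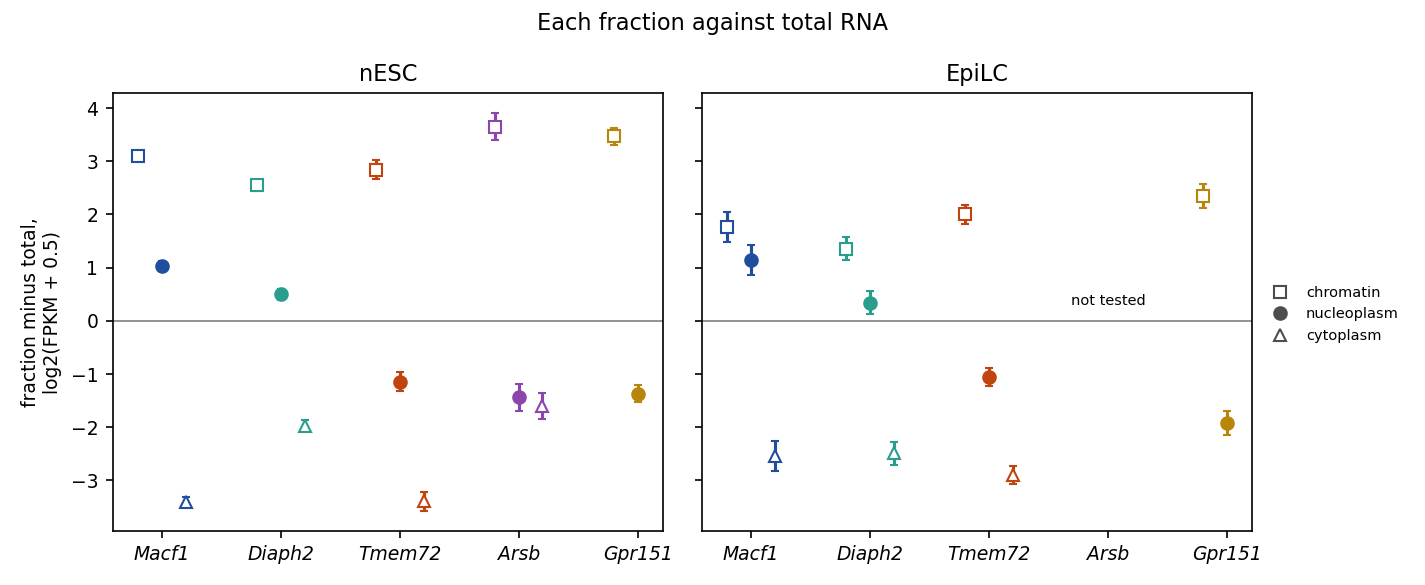
Difference of each fraction from total RNA on the log2(FPKM + 0.5) scale for each gene and state, with SE as error bars; squares are chromatin, filled circles nucleoplasm and triangles cytoplasm, and Gpr151 cytoplasm, listed at 0 in most libraries, is left out. The nucleoplasm lies above the zero line for Macf1 and Diaph2 and below it for the others.

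The chromatin differences were smaller in EpiLC than in nESC for the 4 genes fitted in both. Over nucleoplasm the value in EpiLC minus that in nESC was -1.43 (SE 0.29) for Macf1, -1.04 (SE 0.25) for Diaph2, -0.92 (SE 0.25) for Tmem72 and -0.57 (SE 0.28) for Gpr151. Over the 11704 genes tested in both states its median was -0.10. Over cytoplasm the value was -2.19 (SE 0.29) for Macf1, -1.33 (SE 0.25) for Tmem72 and -0.67 (SE 0.25) for Diaph2, with a median of -0.12 over all genes. Without both EpiLC libraries numbered 3 the EpiLC values stayed below those of nESC but lay closer to them. Examples are Diaph2 over cytoplasm (4.14 against 4.52) and Gpr151 over nucleoplasm (4.51 against 4.84). The genes were chosen with these differences known and the tables were normalized separately, so these values are a description.

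Neighbouring and overlapping genes were examined next, because reads that run on from a neighbour, or that belong to an overlapping gene, could enter the value of a gene. Of 15 such genes examined, 7 were tested in nESC and 8 in EpiLC. They include the nearest tested genes at any distance. Chm, at 16564 kb from Diaph2, is among those called higher over cytoplasm in both states. In nESC, 3 were called higher in chromatin than in cytoplasm and 2 lower by limma (2-fold or more, with the adjusted p below 0.05), where 31.8% of all genes tested were called higher and 29.7% lower. Over nucleoplasm 1 was higher and 2 lower in nESC (17.4% and 17.3% of all genes). In EpiLC, 2 were higher and 1 lower over cytoplasm (29.1% and 28.4%), and 1 higher and 2 lower over nucleoplasm (16.0% and 16.7%).

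Arsb has a well-expressed neighbour on its own strand. Dmgdh, which encodes the mitochondrial dimethylglycine dehydrogenase, ends 18.8 kb upstream of the start of Arsb. Its nESC libraries held 26.6, 30.3 and 18.9 FPKM in chromatin and 24.7, 25.5 and 26.3 in nucleoplasm, so those groups overlapped, and it averaged 14.6 ± 0.554 (SD, n = 3) in cytoplasm and 24.6 ± 0.039 in total RNA. In EpiLC it averaged 0.0624 FPKM in chromatin and 0.105 in total RNA. Dmgdh was thus near 0 in the state in which Arsb chromatin RNA was also low, and its part in the Arsb values was not tested. The chromatin difference of Dmgdh over nucleoplasm in nESC was -0.04 (SE 0.13, limma adjusted p = 0.795), against 5.09 for Arsb. Downstream of Arsb, at 115 kb on the same strand, Lhfpl2 rose in chromatin over cytoplasm in nESC by 1.08 (SE 0.11, limma adjusted p = 8.46e-07; 0.82 and not called with libraries centred on their median) and in EpiLC by 1.39 (SE 0.25, limma adjusted p = 0.00019).

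The annotated exons of Gm26527, a noncoding RNA on the opposite strand, lie entirely within the exons of Arsb (1948 of 1948 bases). It held 0.0355, 0.068 and 0.118 FPKM in nESC chromatin, where Arsb held 16 to 38.1. The opposite gene was thus near 0 where Arsb was high. The library kit keeps the strand, and the use of strand in counting is not given in the sources used here. Gm47210, a noncoding RNA that overlaps the start of Arsb on the opposite strand, was not analysed here. Other annotated genes within the spans are not among the genes measured either. They are Mir5624 and Gm25534 in Arsb, Gm12924, Gm23548, Mir6398 and Gm12926 in Macf1, and Gm14984 in Diaph2.

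**Figure D4:**
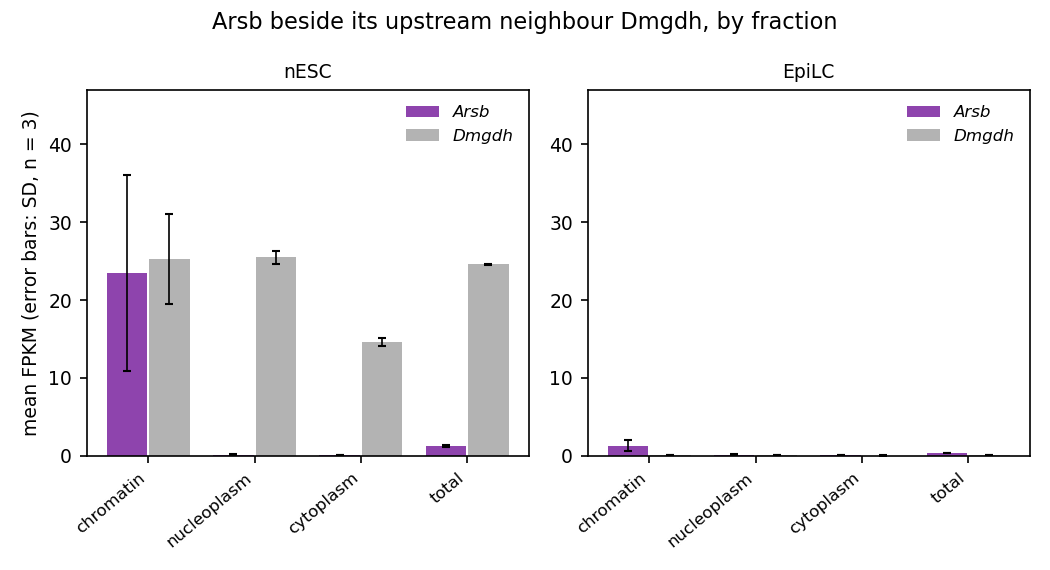
Mean FPKM with SD (n = 3) by fraction for Arsb beside Dmgdh, in nESC and EpiLC. In nESC, Dmgdh extends over nucleoplasm and cytoplasm, where Arsb averages 0.147 FPKM or less; in EpiLC chromatin Arsb averages 1.26 FPKM and Dmgdh 0.0624.

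Upstream of Gpr151, Ppp2r2b lay 57.8 kb away on the same strand and averaged 0.0357 FPKM in nESC chromatin and 0.451 in EpiLC chromatin, against 16.4 and 12 for Gpr151. The nearest gene tested on that side, Stk32a (in EpiLC only), was 628 kb away. Only the upstream side of Gpr151 is described here.

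Tmem72 and Macf1 have weakly expressed neighbours on their 3′ side. Rassf4, 5.11 kb downstream of Tmem72 on the same strand, averaged 0.756 FPKM in nESC chromatin against 187 for Tmem72. Upstream of Tmem72 the nearest gene of the tables was 444 kb away (D030044L04Rik), and the nearest tested gene was the chemokine gene Cxcl12 at 452 kb, tested in EpiLC only. Bmp8a, 6.38 kb downstream of Macf1 on the same strand, rose in nESC chromatin by 1.70 over cytoplasm (SE 0.17, limma adjusted p = 6.37e-07) and by 1.14 over nucleoplasm (SE 0.17, limma adjusted p = 4.79e-05), the latter 0.94 and not called with a pseudocount of 1. Its level was 3.63, 3.04 and 2.48 FPKM in nESC chromatin, far below the 527 to 621 of Macf1. On the 5′ side of Macf1, the respiratory chain gene Ndufs5 lay 28.3 kb upstream on the same strand. It averaged 40.4 FPKM in nESC chromatin and 150 in nESC total RNA, and its part in the Macf1 values was not tested. Ndufs5 fell in nESC chromatin by 2.71 against cytoplasm (SE 0.11, limma adjusted p = 4.59e-11). With libraries scaled to one sum the difference was -0.75, no longer called.

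Gm12925, a noncoding gene on the opposite strand within the Macf1 span, shares 0 exonic bases with Macf1. It averaged 12.2 FPKM in nESC chromatin and 25.5 in nESC cytoplasm, a difference of -1.11 (SE 0.25, limma adjusted p = 0.000883) that became 0.81 when each library was scaled to one sum of FPKM. The genes of the tables nearest to Diaph2 were far off. The nearest upstream, 4930558G05Rik, lay 683 kb away and was listed at 0 in all libraries, and the nearest downstream, Pcdh19, lay 3117 kb away and averaged 1.14 FPKM in nESC chromatin. The closest tested genes were Tspan6, at 3425 kb, and the Rab escort protein gene Chm, at 16564 kb, both on the opposite strand. Chm rose in chromatin over cytoplasm by 3.98 (SE 0.15, limma adjusted p = 3.61e-11) in nESC and by 3.45 (SE 0.22) in EpiLC. Tspan6 was not called over cytoplasm in either state.

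Since FPKM is relative and its sums differed between fractions, the counts of called genes depend on scaling. Each list below is set against all genes tested, as deposited and with libraries scaled to one sum. As deposited, 31.8% of all genes were called higher and 29.7% lower in chromatin over cytoplasm in nESC (4003 and 3742 genes), and 29.1% and 28.4% in EpiLC (3737 and 3649). With each library scaled to one sum of FPKM these shares were 66.8% and 5.96% in nESC (8416 and 751 genes) and 65.4% and 5.16% in EpiLC (8396 and 662). Over nucleoplasm they were 17.4% and 17.3% in nESC (2195 and 2179 genes) and 16.0% and 16.7% in EpiLC (2058 and 2141) as deposited, and 38.6% and 7.31% (4862 and 921) and 37.5% and 3.91% (4819 and 502) after scaling. Scaling moved the median of all genes from 0.04 to 1.85 over cytoplasm in nESC and from 0.00 to 1.69 in EpiLC, and over nucleoplasm from 0.02 to 0.69 and from -0.07 to 0.69. The list medians less the median of all genes kept their sign over nucleoplasm in all lists. Over cytoplasm they kept it in all lists but the sulfatases in EpiLC (-0.04 as deposited, 0.08 after scaling). The 5 genes themselves were left out of all lists.

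Among genes related to Macf1 in function, the plakins, spectrins and microtubule end proteins, 13 of 21 tested in nESC rose in chromatin over cytoplasm and none fell by limma, 61.9% against 31.8% of all genes, with a median of 2.00. In EpiLC 12 of 22 rose and none fell, 54.5% against 29.1%, with a median of 1.2. After scaling, 21 of 21 and 21 of 22 rose, against 66.8% and 65.4% of all genes. The spectrin gene Sptbn1 rose by 6.08 (SE 0.13, limma adjusted p = 3.08e-13) in nESC and 4.0 (SE 0.16, limma adjusted p = 2.48e-10) in EpiLC. Dst, which encodes dystonin, the spectraplakin most like the Macf1 product, rose by 5.33 and 4.16, the tumour suppressor gene Apc by 4.35 and 3.40 and the spectrin gene Sptan1 by 3.36 and 2.04. Over nucleoplasm, 6 of 21 rose and 1 fell in nESC, 28.6% higher against 17.4% of all genes, and 1 of 22 rose in EpiLC, 4.55% against 16.0%. After scaling, 10 of 21 and 6 of 22 rose over nucleoplasm and none fell, where 38.6% and 37.5% of all genes rose.

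Of 8 tested formins in nESC, 5 rose in chromatin over cytoplasm and none fell, 62.5% higher against 31.8% of all genes, with a median of 1.91. In EpiLC 7 of 10 rose, 70% against 29.1%, with a median of 1.41. After scaling, 8 of 8 and 10 of 10 rose, against 66.8% and 65.4% of all genes. In nESC the differences were 2.77 (SE 0.14, limma adjusted p = 4.86e-10) for Fmnl2, 2.53 for Diaph3 and 2.48 for Diaph1, the closest relatives of Diaph2, and 2.47 for Daam1. In EpiLC they were 1.5 for Fmnl2, 2.17 for Diaph3, 1.32 for Diaph1 and 1.71 for Daam1, so their order differed. All of them lay below the 4.52 and 3.85 of Diaph2, which was chosen for a high difference, so nothing is read from this. Over nucleoplasm 2 of 8 formins rose in nESC, 25% against 17.4% of all genes, and 2 of 10 in EpiLC, 20% against 16.0%, and none fell. After scaling, 5 of 8 and 3 of 10 rose over nucleoplasm, against 38.6% and 37.5% of all genes.

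Of 20 tested genes for sulfatases and the breakdown of glycosaminoglycans, the relatives of Arsb, none rose in chromatin over nucleoplasm in nESC and 11 fell, against 17.3% of all genes called lower, with a median of -1.07. In EpiLC 5 of 19 fell, against 16.7% of all genes, and none rose. With libraries scaled to one sum, 6 fell and 2 rose in nESC, where 7.31% of all genes fell and 38.6% rose. In EpiLC none fell and 3 rose after scaling, where 3.91% of all genes fell and 37.5% rose. Over cytoplasm 5 rose and 8 fell in nESC, and 5 rose and 2 fell in EpiLC (4 fell without both libraries numbered 3). The shares called higher were 25% and 26.3%, beside 31.8% and 29.1% of all genes. After scaling, 12 of 20 and 15 of 19 rose and none fell, beside 66.8% and 65.4% of all genes. Hexa, a lysosomal hexosaminidase gene, fell against cytoplasm by 2.10 (SE 0.17, limma adjusted p = 8.6e-08) in nESC and 1.08 in EpiLC, and Sumf2, a paralog of the sulfatase activator, by 1.99 and 1.56. Sulf1, an extracellular sulfatase gene, rose by 2.17 and 1.69, and the hyaluronidase gene Hyal1 by 1.89 and 1.85.

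Of 7 tested galanin-like and orphan receptors in nESC, none rose in chromatin over cytoplasm and 2 fell, Gpr180 and Gpr137, against 31.8% and 29.7% of all genes. In EpiLC 3 of 12 rose, 25% against 29.1% of all genes, and 1 fell (3 fell without both libraries numbered 3); scaled to one sum, 5 of 7 and 8 of 12 rose and none fell, beside 66.8% and 65.4% of all genes. Over nucleoplasm none of 7 was called in nESC, and 2 of 12 rose in EpiLC, 16.7% against 16.0% of all genes. Gpr107 and Gpr137b had differences over cytoplasm of 0.99 and 0.93 in nESC.

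Of 153 genes named Tmem with a number, 30 rose in chromatin over cytoplasm and 55 fell in nESC, 19.6% higher against 31.8% of all genes, with a median of -0.34. In EpiLC 32 of 157 rose and 51 fell, 20.4% higher against 29.1%. With libraries scaled to one sum, 93 rose and 7 fell in nESC and 87 rose and 10 fell in EpiLC, where 66.8% and 65.4% of all genes rose. The differences over cytoplasm in nESC were -4.42 for Tmem256, -4.22 for Tmem160 and -3.34 for Tmem147, all called lower, while Tmem181a rose by 3.40. Over nucleoplasm 16 rose and 32 fell in nESC, 10.5% higher against 17.4% of all genes, and 15 rose and 19 fell in EpiLC, 9.55% against 16.0%. After scaling these were 36 and 12 in nESC and 46 and 5 in EpiLC, where 38.6% and 37.5% of all genes rose.

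Long genes were called higher in chromatin more often than all genes, with a median below the values of Macf1 and Diaph2 over cytoplasm. Those 2 genes were chosen for high values. Of 446 other tested genes spanning at least 200 kb, 255 rose in chromatin over cytoplasm in nESC and 36 fell, 57.2% higher against 31.8% of all genes, with a median of 1.31. In EpiLC 288 of 492 rose and 26 fell, 58.5% higher against 29.1%, with a median of 1.29. After scaling, 398 rose and 2 fell in nESC and 452 rose and 1 fell in EpiLC, where 66.8% and 65.4% of all genes rose. Over nucleoplasm 140 rose and 16 fell in nESC, 31.4% higher against 17.4% of all genes, and 122 rose and 13 fell in EpiLC, 24.8% against 16.0%. After scaling these were 288 and 4 in nESC and 305 and 1 in EpiLC, where 38.6% and 37.5% of all genes rose. Besides Dst, the largest differences over cytoplasm in nESC belonged to the muscle giant Ttn at 5.18, the transcription factor gene Nfib at 4.67 and the ciliary dynein gene Dync2h1 at 4.55. The median difference in nESC was -0.81 over 3640 genes under 10 kb, the class of Gpr151, -0.08 over 5843 genes of 10 to 50 kb, the class of Tmem72, and 0.92 over 2628 genes of 50 to 200 kb, the class of Arsb. The 99th percentiles of these classes in nESC were 4.88, 4.5 and 4.63, and 4.49 for genes of 200 kb and more. In nESC, Tmem72, Arsb, Macf1 and Diaph2 thus lay above the 99th percentile of genes of their length, by the values that chose them. Diaph2, at 4.52, did so only just. In EpiLC, Tmem72 (4.89 against 3.86) and Macf1 (4.30 against 3.93) lay above it and Diaph2 (3.85 against 3.93) below it. Spearman's rho between span and difference in nESC was 0.31 over cytoplasm and 0.14 over nucleoplasm across 12562 genes, which are not independent replicates. In EpiLC it was 0.31 and 0.09 across 12805 genes.

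**Figure D5:**
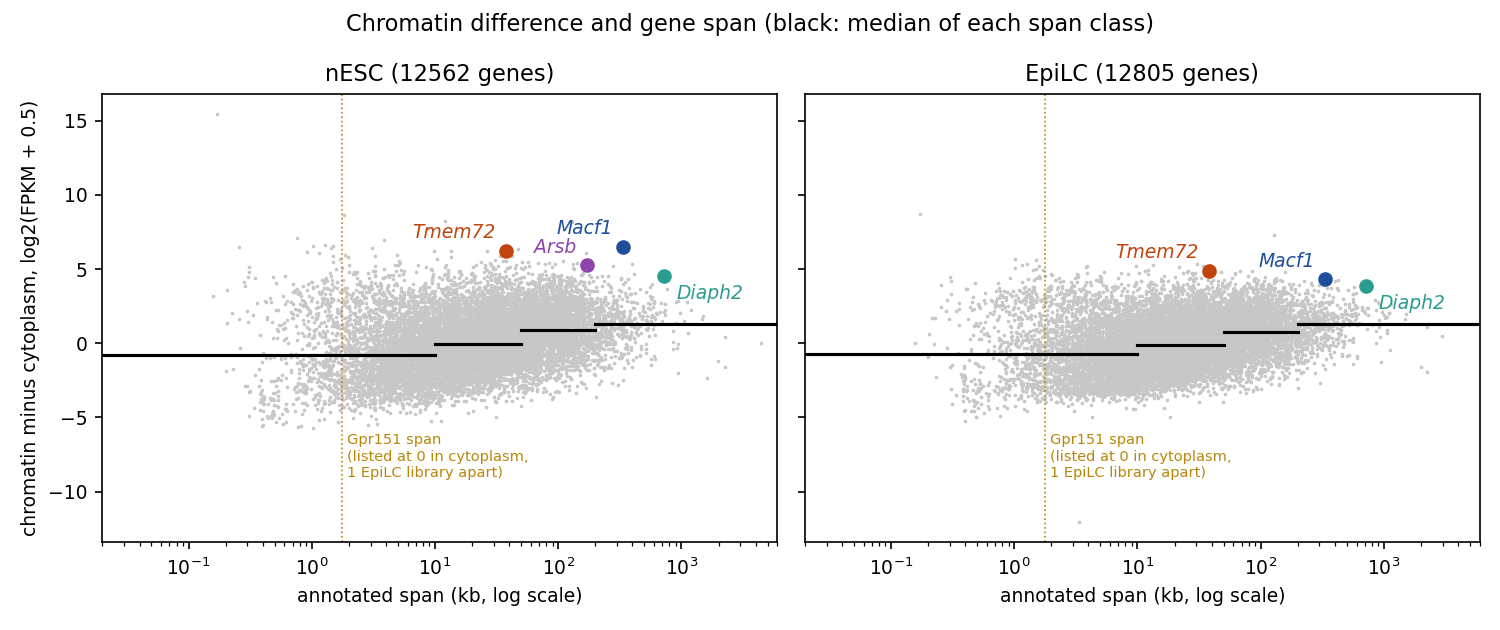
Difference of chromatin over cytoplasm (log2(FPKM + 0.5)) against annotated span (kb, log scale) for all tested genes, with black lines at the median of each span class, the named genes as large points and a dotted line at the span of Gpr151. The class medians in nESC rise from -0.81 to 1.31, and Tmem72, Arsb, Macf1 and Diaph2 lie above the 99th percentile of their classes there.

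The genes most like each of the 5 over the 24 libraries, by Pearson's r of values centred within each state, also differed. Macf1 was nearest to Dst (r = 0.991), the condensin gene Ncapd3 (0.990) and Sptbn1 (0.990), and Diaph2 to Emsy (0.995), R3hdm1 (0.994) and Arfgef1 (0.994), which are all coding genes. Tmem72 was nearest to the noncoding RNAs Gm45899 (0.999), Gm44739 (0.996) and Gm16344 (0.995). Gm45899, on another chromosome, averaged 842 FPKM in nESC chromatin and 7.5 in nESC cytoplasm. Gpr151 was nearest to the noncoding RNAs Gm19325 (0.993), Gm26563 (0.993) and Dbhos (0.992), and Arsb to the coding genes Ppp1r10 (0.959), Arhgef26 (0.955) and Pfkfb3 (0.951). The points share their fractions and libraries, so these values describe likeness across 4 kinds of RNA and no more. Among the 5 themselves, r was 0.97 between Macf1 and Diaph2, 0.94 between Tmem72 and Gpr151, 0.88 between Arsb and Gpr151 and 0.70 between Macf1 and Arsb.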

How the data were processed

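RNA from the 3 cell fractions and from whole cells was extracted with TRIzol; ribosomal RNA was removed (Ribo-zero gold) and stranded libraries were made, per the labels' protocols. The authors deposited FPKM per gene, in 1 table per state; the submitters' processing notes name TopHat2, Cuffnorm and mm10 (GRCm38). No version, annotation, normalization option or strand handling during counting is given in the sources used here. Genes were matched by Ensembl ID to GENCODE M21 (29586 of 29759 with a symbol). Groups came from the labels.

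Fractions were compared within a state with limma 3.58.1 in R 4.3.3 (two-sided, with trend) on log2(FPKM + 0.5), all 12 libraries fitted together, for genes averaging 1 FPKM or more. Adjusted p-values are Benjamini-Hochberg over all genes tested, and calls needed a change of 2-fold or more with the adjusted p below 0.05. In the text, rose and fell mean called. The fit was tested on simulated data in which few genes changed, so that test does not cover the scaling between fractions.

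Counts are not in the tables. Steps between low FPKM values, with 200 bases taken off each length, put 22.7 to 87.2 fragments behind 1 FPKM at 2 kb. Of the low values, 87.6% to 95.7% were whole multiples to within 10%.

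Named were the 5 genes, the tables' genes that overlap them, the nearest and the nearest tested gene on each side, the 3 most like genes of each, and up to 4 of each list by absolute difference over cytoplasm in nESC. Atr, next below Diaph2, and the genes outside the tables were added after their values or places were seen. 1 adjacent gene is not reported here. The members and lists were chosen with earlier results of these data known. Alternatives were pseudocounts of 0.1 and 1, no filter, a mean of at least 5 FPKM, centring on the median, scaling to one sum, no trend, only 2 fractions, a replicate block and each library left out.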

Additional observations from a re-analysis of the deposited data

How the results depend on the processing

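The counts of called genes, higher and lower together, stayed within 1.5 times in all 62 values computed (4 counts under each alternative). The split by direction did not. With libraries scaled to one sum, 4003 higher and 3742 lower over cytoplasm in nESC became 8416 and 751. The median difference of the genes over cytoplasm in nESC (5.26 with the fitted value of Gpr151, which is listed at 0 there and depends on the pseudocount) was 6.59 and 4.39 with pseudocounts of 0.1 and 1, 5.74 with a mean of at least 5 FPKM, 6.43 with libraries scaled to one sum, and 4.92 to 5.47 with 1 library left out; the lowest was without chromatin replicate 2. Over nucleoplasm in nESC (3.98) it was 3.02 with a mean of at least 5 FPKM, 4.70 after scaling and 3.77 to 4.26 with 1 library left out. In EpiLC over cytoplasm (4.43) it was 5.82 after scaling, and over nucleoplasm (2.04) it was 1.37 with no filter, which adds Arsb, 1.02 with a mean of at least 5 FPKM, which removes Gpr151, and 2.84 after scaling. No difference of any of the 5 genes changed sign in 274 values. The genes were chosen for large differences in these libraries, so nothing is read from the kept sign. For overlapping and adjacent genes, 433 of 456 values stayed called in the same direction or stayed not called, and 12 of these, all not called, changed sign; Gm12925 over cytoplasm in nESC turned to 0.81 after scaling. Deviations of same-numbered libraries correlated weakly: of 36 correlations, 3 exceeded 0.1 and 7 lay below -0.1 (range -0.22 to 0.18). This does not show whether such libraries came from the same culture. With a replicate block, 7748 genes were called over cytoplasm and 4376 over nucleoplasm in nESC, against 7745 and 4374 without. In EpiLC they were 7386 and 4200, against 7386 and 4199. The median differences with the block were 5.26 and 3.98 in nESC and 4.43 and 2.04 in EpiLC. Levels under a few fragments, as of Arsb and Gpr151 in cytoplasm, are limited by depth.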
